A study of Rattus norvegicus with 9 samples.

Results

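Iron homeostasis genes of the rat left ventricle were followed in sham-operated rats, in infarcted rats and in infarcted rats given dapagliflozin. The set consisted of 10 genes chosen by symbol for uptake, storage, export and sensing of iron: Tfrc, Slc11a2, Fth1, Ftl1, Slc40a1, Cp, Hamp, Hfe, Ireb2 and Hmox1. All 10 had a single row in the expression table of 35843 genes, and 8 of them had a value above 0. All 9 animals were adult male Sprague-Dawley rats. Group MI had the left anterior descending artery permanently ligated and received saline by daily gavage. Group MI + DAPA (1st d) had the same ligation and received dapagliflozin, an inhibitor of the sodium-glucose cotransporter SGLT2, at 1 mg/kg by daily gavage from the first day, and is called the DAPA group below. Group Sham had the operation without ligation and received saline. RNA was taken at day 28 from the left ventricles of 3 rats per group. The study states that its molecular work used mainly the infarct border. Its sequencing results name infarct myocardium for both infarcted groups, so the exact site of these samples is uncertain.

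Cells take up transferrin-bound iron through the transferrin receptor, move it out of the endosome through a divalent metal transporter, store the excess in ferritin and release it through ferroportin, whose iron is oxidised by ceruloplasmin. Hepcidin binds ferroportin and causes its breakdown, so it retains iron in cells. Iron regulatory proteins stabilise the transferrin receptor mRNA and repress ferritin translation when iron is scarce, so ferritin protein is not set by its mRNA alone. Heart muscle depends on iron for its mitochondria and makes some hepcidin of its own.

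Expression was given as FPKM, the fragments of a gene scaled to its length and to a measure of library size. The reads of each rat, recovered from the steps between low FPKM values, numbered 13597239 to 17210909. The mitochondrial genome took 63.2% ± 3.18 (SD, n = 3) of them in Sham rats, 13.8% ± 6.15 in MI rats and 25.6% ± 7.42 in DAPA rats. This left 5702454 to 6570698 reads on other genes in group Sham and 11440726 to 13171891 in the infarcted groups, so depth for the iron genes was lowest in Sham rats. The library scale of the deposited FPKM did not follow all recovered reads. With Sham replicate 1 set to 1, it was 1.85 in MI replicate 1, which had 15565791 reads against 16899773. The summed FPKM of 11 macrophage markers was 161 to 520 in Sham rats, 2044 to 3689 in MI rats and 1135 to 2089 in DAPA rats. That of 12 cardiomyocyte markers was 7244 to 10657, 2335 to 11615 and 8930 to 18666, and the tissue held heart muscle in every rat. MI replicate 2 stood apart, with the lowest cardiomyocyte sum and the highest macrophage sum of the 9 rats, and results that change without it are given without it as well. In such bulk tissue, fewer cells of a type and less RNA per cell cannot be told apart.

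After infarction, ceruloplasmin, haem oxygenase 1 and ferritin light chain mRNA were higher and transferrin receptor mRNA was lower than after sham operation. In DAPA rats the same 3 transcripts were above group Sham, and hepcidin mRNA was 7.98 times its sham level. Between the DAPA group and group MI no gene of the 13251 tested passed the adjusted threshold, although in the deposited values all 3 treated rats were above all 3 MI rats for hepcidin, and below them for ceruloplasmin and haem oxygenase 1. With the mitochondrial genome left out and the other genes rescaled, this separation held for haem oxygenase 1 and not for the other two. Differences were tested by limma on log2(FPKM + 1) over all genes, and a gene is said to be called where its adjusted p was under 0.05. This scale understates the change of genes with low values.

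**Figure D1:**
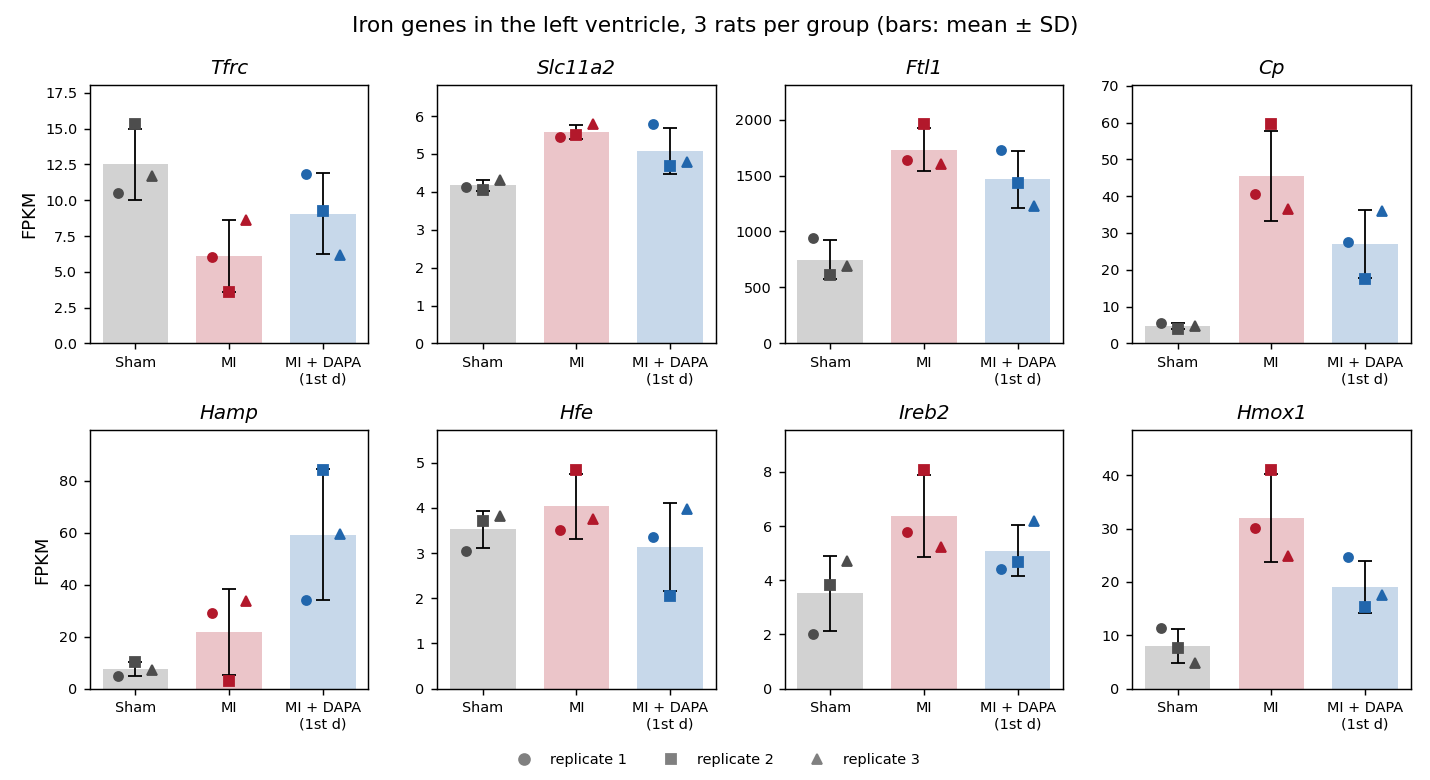
FPKM of the 8 iron genes with values, one panel per gene with its own linear axis from 0, in the 3 groups (Sham, MI, DAPA). Points are single rats with a marker for each replicate number, bars are means and error bars are SD (n = 3). Ceruloplasmin (Cp) lies at 3.96 to 5.54 FPKM in group Sham and above 17 in every infarcted rat, and hepcidin (Hamp) is widely spread in group MI.

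Tfrc encodes the transferrin receptor, the main entry of transferrin-bound iron. It had 10.5, 15.3 and 11.7 FPKM in Sham replicates 1 to 3. It had 6.05, 3.6 and 8.65 FPKM in the MI replicates and 11.8, 9.25 and 6.17 FPKM in the DAPA replicates. All MI rats lay below all Sham rats, while the treated rats overlapped both other groups. The mean was 12.5 ± 2.49 FPKM (SD, n = 3) in group Sham and 6.1 ± 2.53 in group MI, a ratio of 0.49. Tfrc fell by 0.98 on the log2 scale (SE 0.29, adjusted p = 0.0332) in group MI. It was computed again under 15 alternatives, which changed the filter, scaling, pseudocount or variance model or left out a rat. The call was lost without any single rat but MI replicate 3, with adjusted p between 0.0509 and 0.0971. The difference without MI replicate 2 was -0.70 (adjusted p = 0.066). It was also lost with no filter on low values (adjusted p = 0.0703) and with the replicate number as a block (adjusted p = 0.0631). Of the 15 alternatives, 7 lost the call with the direction kept and 1 turned the direction. Of 5 endothelial markers 4 were called lower in MI vs Sham, beside 19.5% of all genes, with a summed FPKM of 815 to 898 in Sham rats, 209 to 278 in MI rats and 289 to 325 in DAPA rats, and their part in the Tfrc result was not tested. Scaled to all recovered reads, mitochondrial ones included, the median of all genes moved to 0.92 and Tfrc to 0.01, which is -0.92 relative to that median. The treated group, at 9.08 ± 2.83 FPKM, differed by 0.53 (SE 0.32, adjusted p = 0.602) from group MI and by -0.45 (SE 0.25, adjusted p = 0.213) from group Sham.

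The promoter of Tfrc is shown because Tfrc was the only one of the tested iron genes called lower after infarction. It spans chr11:81690269-81690568 of GRCr8 on the minus strand, from 250 bases before the start to 50 after it, as RefSeq gives it. The capitals mark GGCGCC, the BMP-responsive element, at 118 to 113 bases before the start, and ACGTG, the hypoxia-responsive core, at 31 to 27 bases before it.
Tfrc: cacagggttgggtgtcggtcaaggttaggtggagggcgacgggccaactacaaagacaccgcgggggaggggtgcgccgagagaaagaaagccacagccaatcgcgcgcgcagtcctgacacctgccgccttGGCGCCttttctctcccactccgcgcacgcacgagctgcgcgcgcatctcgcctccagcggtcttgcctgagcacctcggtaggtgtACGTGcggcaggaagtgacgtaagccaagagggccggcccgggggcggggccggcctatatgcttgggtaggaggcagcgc
Both strands were searched, the matches do not overlap, and a match describes letters and not a bound site. GGCGCC occurred in 11% of the 33469 promoters in the RefSeq table and ACGTG in 19.3%.

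Slc11a2 encodes the divalent metal transporter DMT1, which carries iron out of the endosome. It was even within groups, at 4.14, 4.05 and 4.32 FPKM in Sham rats, 5.44, 5.49 and 5.78 in MI rats and 5.78, 4.67 and 4.79 in DAPA rats. Every infarcted rat, treated or not, lay above every Sham rat, but rescaled without the mitochondrial genome DAPA replicate 2, at 4.25 FPKM, overlapped the Sham rats. The difference was 0.35 (SE 0.14, adjusted p = 0.0959) for group MI and 0.23 (SE 0.17, adjusted p = 0.342) for the DAPA group, both against group Sham. Between the treated and untreated infarcted groups it was -0.12 (SE 0.14, adjusted p = 0.756).

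Of the ferritin chains, which build the iron storage shell, only the light chain Ftl1 had values. Ftl1 had 941, 614 and 693 FPKM in Sham rats, 1638, 1957 and 1601 in MI rats and 1732, 1434 and 1231 in DAPA rats. All infarcted rats were above all Sham rats, and the ranges of the infarcted groups overlapped. The mean rose from 749 ± 170 FPKM (SD, n = 3) in group Sham to 1732 ± 196 in group MI, a log2 difference of 1.23 (SE 0.22, adjusted p = 0.00619). It was 1466 ± 252 FPKM in the DAPA group, 0.98 above group Sham (SE 0.26, adjusted p = 0.0273) and -0.25 from group MI (SE 0.27, adjusted p = 0.738). The call against group Sham was lost without Sham replicate 2 or 3, without DAPA replicate 1 or 2, and with no filter on low values, with adjusted p between 0.0596 and 0.101. RefSeq lists 14 pseudogenes and 7 similar genes named after Ftl1, and how reads shared with them were counted is not given in the sources used here, so the Ftl1 level is uncertain.

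Fth1, the ferritin heavy chain with the ferroxidase centre, was listed at 0 in all 9 rats. Slc40a1, which encodes ferroportin, the only known exporter of free iron, was listed at 0 in all 9 rats too. An exact 0 in this table can be a failed estimate: Rpl23a and Rpl10a, ribosomal protein genes used by every cell, are also listed at 0, among 4 of 101 ribosomal protein symbols. Fth1 has 6 copies named after it in RefSeq, Rpl23a 26 and Rpl10a 16. Slc40a1 has none, but overlaps Asnsd1, Asdurf and Plp2l1. No level, fold or absence is stated for Fth1 or Slc40a1.

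Cp encodes ceruloplasmin, the copper ferroxidase that loads exported iron onto transferrin. It had the largest difference between group MI and group Sham of the 8 genes tested. Cp had 5.54, 3.96 and 4.7 FPKM in Sham rats, 40.6, 59.5 and 36.6 in MI rats and 27.5, 17.6 and 36.1 in DAPA rats. The 3 groups did not overlap, with the treated rats in between, and DAPA replicate 3 at 36.1 FPKM was next to MI replicate 3 at 36.6. The mean of 4.73 ± 0.795 FPKM (SD, n = 3) in group Sham compared with 45.6 ± 12.3 in group MI, a ratio of 9.63 and a log2 difference of 3.00 (SE 0.22, adjusted p = 0.000953). In the DAPA group the mean was 27.1 ± 9.24 FPKM, 2.24 above group Sham (SE 0.26, adjusted p = 0.00236). Treated rats were below untreated MI rats by a ratio of 0.59, with a log2 difference of -0.76 (SE 0.30, unadjusted p = 0.0384, adjusted p = 0.558). The macrophage marker sum was also highest in group MI, and its part in this result was not tested. In RefSeq Cp overlaps Hps3, which had 3.59 to 5.45 FPKM over the 9 rats.

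Hamp encodes hepcidin, the peptide that closes ferroportin. It had 4.78, 10.3 and 7.25 FPKM in group Sham, from 18, 38 and 23 reads. It had 29, 2.99 and 33.6 FPKM in group MI, from 202, 19 and 232 reads, and 34, 84.4 and 59.6 FPKM in the DAPA group, from 202, 488 and 388 reads. Every treated rat was above every rat of the other groups, though DAPA replicate 1 at 34 FPKM was next to MI replicate 3 at 33.6. MI replicate 2 was the lowest of all 9 rats, while the other MI rats were above all Sham rats. The DAPA group, at 59.3 ± 25.2 FPKM (SD, n = 3), was above group Sham, at 7.44 ± 2.76, by 2.80 on the log2 scale (SE 0.36, adjusted p = 0.00294). This call held in all 15 alternatives, with adjusted p between 0.000253 and 0.0181.

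In group MI the mean of Hamp was 21.9 ± 16.5 FPKM (SD, n = 3), 0.98 above group Sham on the log2 scale (SE 0.79, adjusted p = 0.36). Without MI replicate 2 this difference was 1.99 and passed, with an adjusted p of 0.0059. The difference between the DAPA group and group MI was 1.82 (SE 0.83, unadjusted p = 0.0655, adjusted p = 0.558), a ratio of means of 2.71, and 0.81 without MI replicate 2. The exact permutation test of that comparison gave p = 0.1, the smallest that 3 rats against 3 allow. MI replicate 2 was also lowest in the cardiomyocyte sum, at 2335 FPKM, and DAPA replicate 2 was highest in both Hamp and that sum, at 18666. DAPA replicate 3 went the other way, with 59.6 FPKM of Hamp at a cardiomyocyte sum of 8930. The part of the cardiomyocyte markers in the Hamp difference was not tested. Of these 12 markers 7 were called higher in DAPA vs Sham, beside 14.5% of all genes, and 0 in DAPA vs MI, beside 0%, where their median difference was 1.27. Liver is the main source of hepcidin in the body, and 3 of its 5 markers were at or near 0: Alb did not exceed 0.0274 FPKM, Fgb 0.066 and Serpina1 0.207 in any rat. The other liver markers were Apoa1, at most 3.29 FPKM, and Ttr, at 6.82 ± 2.32 FPKM (SD, n = 3) in Sham rats, 7.94 ± 6.34 in MI rats and 18.3 ± 7.22 in DAPA rats. The 5 summed to 7.73 to 12 FPKM, 1.79 to 15 and 10 to 23.2.

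**Figure D2:**
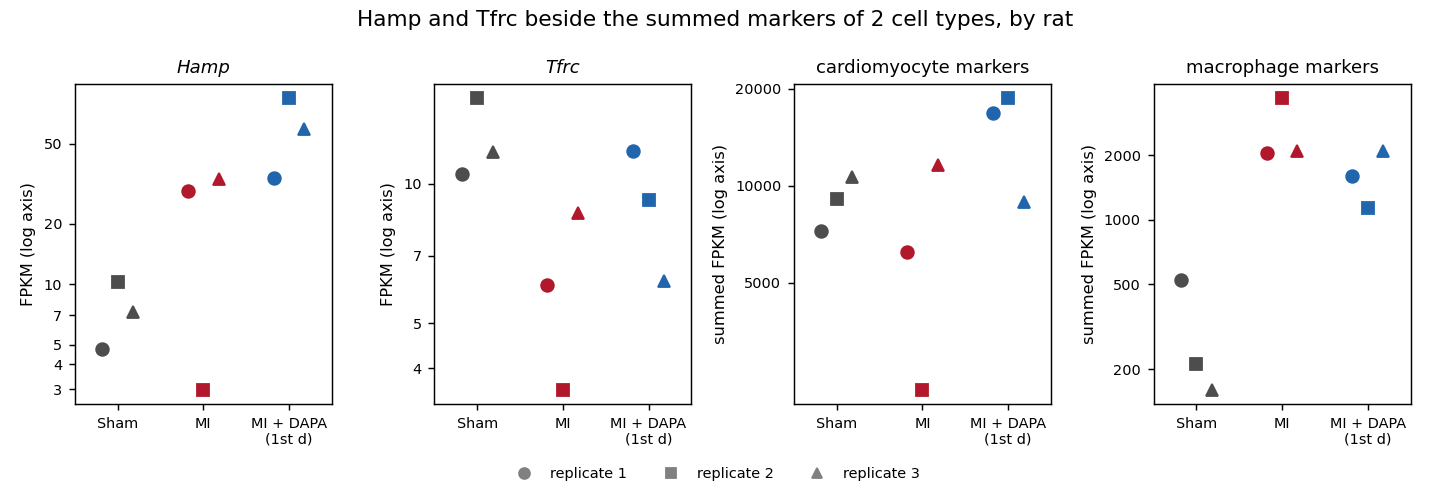
Hepcidin (Hamp) and the transferrin receptor (Tfrc) in FPKM beside the summed FPKM of 12 cardiomyocyte and 11 macrophage markers, each point a rat and each vertical axis logarithmic. The square in group MI is replicate 2, at 2.99 FPKM of Hamp, 3.6 of Tfrc, 2335 of the cardiomyocyte sum and 3689 of the macrophage sum.

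The promoter of Hamp is shown because Hamp carried the largest difference of the set between treated and untreated infarcted rats. It spans chr1:95300222-95300521 of GRCr8 on the minus strand in the RefSeq table, again with 250 bases before and 50 after the start. The capitals mark GGCGCC, the BMP-responsive element, at 129 to 124 bases before the start, and TTCTTGGAA, the STAT3 site, at 117 to 109 bases before it.
Hamp: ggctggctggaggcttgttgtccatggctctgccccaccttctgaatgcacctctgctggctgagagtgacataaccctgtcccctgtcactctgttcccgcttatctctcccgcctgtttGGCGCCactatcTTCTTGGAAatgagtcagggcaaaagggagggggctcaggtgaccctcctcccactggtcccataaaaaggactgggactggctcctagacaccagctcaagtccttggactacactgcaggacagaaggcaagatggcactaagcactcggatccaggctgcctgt
These are the elements through which BMP signals and interleukin-6 are known to drive hepcidin in liver. TTCTTGGAA occurred in 0.526% of the 33469 promoters. TGACNNNGC, the antioxidant-responsive core, was searched as well and occurred in 12.1% of all promoters. In all, 6 of the 10 genes matched the table, with 7 windows, and the windows of Cp, Slc11a2, Ireb2 and Slc40a1 held none of the 4 motifs. Ftl1, Fth1, Hmox1 and Hfe did not match.

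Hfe encodes the haemochromatosis protein, which binds the transferrin receptor and in liver takes part in hepcidin control. It had 3.05, 3.72 and 3.81 FPKM in Sham rats, 3.5, 4.85 and 3.75 in MI rats and 3.36, 2.06 and 3.97 in DAPA rats. All 3 groups overlapped. The log2 difference was 0.15 (SE 0.18, adjusted p = 0.553) for group MI and -0.16 (SE 0.23, adjusted p = 0.647) for the DAPA group, both against group Sham, and -0.30 (SE 0.22, adjusted p = 0.638) between the infarcted groups.

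Ireb2 encodes iron regulatory protein 2, which is degraded when iron is plentiful, so that its mRNA is only part of its regulation. It had 2.01, 3.83 and 4.7 FPKM in Sham rats, 5.8, 8.09 and 5.24 in MI rats and 4.41, 4.69 and 6.19 in DAPA rats. MI rats were all above Sham rats, and the treated rats overlapped both. The difference of 0.74 between group MI and group Sham (SE 0.28, adjusted p = 0.0735) did not pass the threshold. Those of the DAPA group were 0.47 (SE 0.27, adjusted p = 0.229) against group Sham and -0.27 (SE 0.20, adjusted p = 0.64) against group MI.

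Hmox1 encodes haem oxygenase 1, the stress-inducible enzyme that frees iron from haem. It had 11.3, 7.65 and 4.86 FPKM in Sham rats, 30.2, 41.1 and 24.8 in MI rats and 24.6, 15.3 and 17.5 in DAPA rats. As with Cp the 3 groups did not overlap, although DAPA replicate 1 at 24.6 FPKM was next to MI replicate 3 at 24.8. Group MI, at 32 ± 8.31 FPKM (SD, n = 3), was above group Sham, at 7.93 ± 3.22, by 1.92 on the log2 scale (SE 0.30, adjusted p = 0.0039). The DAPA group, at 19.1 ± 4.87 FPKM, was above group Sham by 1.21 (SE 0.30, adjusted p = 0.0215). That call was lost without Sham replicate 2 or 3, without DAPA replicate 1 or 3, and with no filter on low values, with adjusted p between 0.0512 and 0.0785. Treated rats differed from MI rats by -0.71 (SE 0.24, unadjusted p = 0.023, adjusted p = 0.558). Hmox1 is abundant in macrophages that clear red cells. Macrophage markers were called higher than in Sham rats for 11 of 11 in MI rats, beside 19.5% of all genes, and for 10 of 11 in DAPA rats, beside 14.5%. Their part in the Hmox1 result was not tested.

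**Figure D3:**
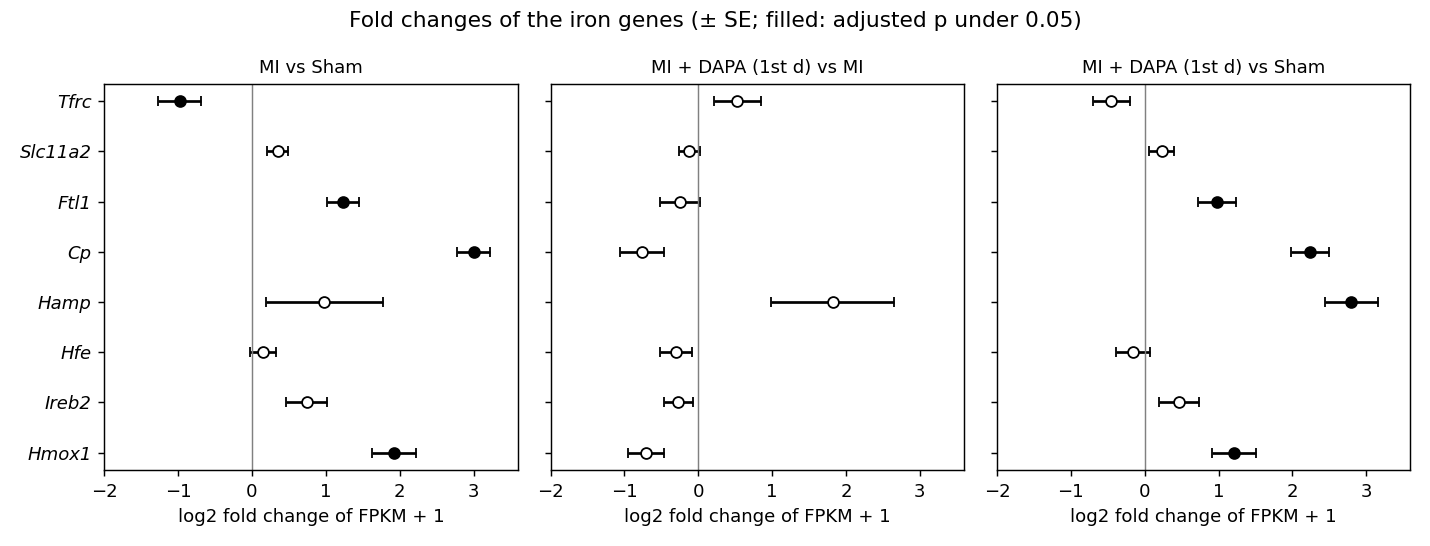
Log2 fold changes of FPKM + 1 with their SE for the 8 iron genes tested, in 3 panels for the 3 comparisons. Filled points passed an adjusted p under 0.05 in limma. Cp leads at 3.00 in MI vs Sham, Hamp leads at 2.80 in DAPA vs Sham, and no point is filled in DAPA vs MI.

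The counts were set against all genes tested. In MI vs. Sham, 3 of the 8 iron genes were called higher (Ftl1, Cp, Hmox1) beside 19.5% of 13485 genes, and 1 was called lower (Tfrc) beside 19.5%. Without overlap between rats, 5 were higher beside 27.1% of all genes and 1 was lower beside 27.5%. The median difference of the 8 genes was 0.86, against -0.01 over all genes. Without MI replicate 2 the number called was 4 as well, with Tfrc lost and Hamp gained.

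For the DAPA group vs. group MI, 0 of the 8 were called beside 0% of 13251 genes, where the smallest adjusted p was 0.558. At an unadjusted limma p under 0.05 there were 0 iron genes higher beside 4.59% of all genes (608) and 2 lower beside 3.9% (517), Cp and Hmox1. Without overlap, Hamp was higher beside 6.63% and Cp and Hmox1 were lower beside 7.16%, 3 genes in all. Rescaled without the mitochondrial genome, DAPA replicate 1 had 31.1 FPKM of Hamp and MI replicate 3 had 33.7, and DAPA replicate 3 had 39.2 FPKM of Cp and MI replicate 3 had 36.7. Hamp and Cp then overlapped, while Hmox1 and Ftl1 were lower without overlap. The count of 3 became 5 without DAPA replicate 1 and 6 without DAPA replicate 3. With fewer rats the ranges of any gene separate more easily, and the share over all genes was not computed for these settings. The median difference was -0.26, against -0.02 over all genes. Without MI replicate 2, or without DAPA replicate 2, 0 iron genes had an unadjusted p under 0.05, without DAPA replicate 1 or 3 there was 1, and without MI replicate 3 there were 4.

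In DAPA vs. Sham, 4 of the 8 were called higher (Ftl1, Cp, Hamp, Hmox1) beside 14.5% of 13359 genes and 0 lower beside 14.1%. Without overlap, 5 were higher beside 23.2% and 0 lower beside 23.3%. The median difference was 0.73, against 0.01 over all genes. The number called was 2 without Sham replicate 2, Sham replicate 3 or DAPA replicate 1. Over all genes, calls went from 3822 to 2607, 2223 and 1802 in these fits, in that order. The MI rats serve in both comparisons that involve group MI, and the Sham rats in both that involve group Sham, so these comparisons are not independent of each other.

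Among the 8 genes, Ftl1 had the highest FPKM in every group and was separate from the next gene. Tfrc was next in group Sham at 12.5 FPKM, Cp in group MI at 45.6 and Hamp in the DAPA group at 59.3. From Tfrc down to Slc11a2 in group Sham, and from Cp down to Slc11a2 in group MI, each gene overlapped the next in its range over 3 rats. In the DAPA group Hamp, Cp and Hmox1 overlapped their neighbours in turn, Hmox1 was separate from Tfrc, at 9.08 FPKM, and Tfrc, Ireb2 and Slc11a2 overlapped again. Slc11a2 was separate from Hfe in each group, while Hfe and Ireb2 overlapped in group Sham.

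Over the 9 rats, Ftl1, Hmox1 and Cp moved most alike of the set, with a Pearson r of log2(FPKM + 1) of 0.95 for Ftl1 and Hmox1 and 0.93 for Cp with each of them. Tfrc ran opposite to Cp, with r of -0.81, and Hamp had r of 0.06 with Tfrc and 0.35 with Cp. These values describe 9 rats in 3 groups that share their libraries and carry no test. Of 14157 genes, those most like Cp were Rab3il1, Add1 and Irf5, each at 0.99. Snap29 at 0.99, Myo1f at 0.98 and Vat1 at 0.98 were most like Hmox1. For Ftl1 they were Sfrp1 at 0.99, Nap1l1 at 0.98 and Ubqln2 at 0.98. Slc30a3 at 0.98 and Dnpep at 0.97 were among the 3 most like Tfrc, and Rbfa at 0.96, Hrasls at 0.95 and AABR07025386.1 at 0.95 were most like Hamp. St13 at 0.97, Bcr at 0.96 and Ptgir at 0.95 were most like Slc11a2. Deptor at 0.97, Parp11 at 0.96 and Slc10a7 at 0.96 were most like Ireb2, and Elf1 at 0.95, Gab1 at 0.93 and AABR07057250.1 at 0.93 most like Hfe.

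A further 77 genes of iron and haem metabolism were listed by role, of which 73 were in the table by that symbol and Ftmt was listed at 0. In MI vs. Sham, 65 were tested, 19 were called higher and 6 lower, beside 19.5% of all genes each way, with a median difference of 0.19 against -0.01 over all genes. The 25 called became 17 without MI replicate 2, 16 without MI replicate 3 or Sham replicate 3, and 15 without MI replicate 1. Over all genes, calls went from 5261 to 3618, 3886, 3576 and 3242 in these fits, in that order. In DAPA vs. Sham, 62 were tested, 14 were called higher and 6 lower, beside 14.5% and 14.1% of all genes, with a median of 0.28. The 20 called became 11 without DAPA replicate 1, where calls over all genes went from 3822 to 1802. In DAPA vs. MI, 63 were tested and 0 called, 8 had an unadjusted limma p under 0.05, beside 8.49% of all genes, and the median was -0.12. In MI vs Sham, Cybrd1, Steap2, Bach1 and Hp reached 1 FPKM in 3 rats only with the group where they were higher. The counts therefore depend in part on that filter.

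Genes of iron uptake and reduction had the highest share called of the 7 lists in MI vs Sham. In group MI, 8 of 11 tested were higher, beside 19.5% of all genes, and 0 lower than in group Sham, with a median difference of 1.48, and in the DAPA group 5 of 11 were higher and 1 lower, beside 14.5% and 14.1%. Steap3, the ferrireductase that reduces endosomal iron, had 2.96, 1.85 and 2.84 FPKM in Sham rats, 33.5, 35.1 and 26.9 in MI rats and 19.6, 23.1 and 20.4 in DAPA rats. Its 3 groups did not overlap. The difference was 3.22 in group MI (SE 0.19, adjusted p = 0.000953) and 2.64 in the DAPA group (SE 0.19, adjusted p = 0.00136), both against group Sham, and -0.57 between them (unadjusted p = 0.00696, adjusted p = 0.558). Scara5, a receptor for ferritin found on mesenchymal cells, had 7.14, 4.64 and 7.65 FPKM in Sham rats, 48, 125 and 44.7 in MI rats and 21.8, 21 and 48.2 in DAPA rats. It was 3.16 higher in MI rats than in Sham rats (SE 0.40, adjusted p = 0.002). The difference from group MI to the treated group was -1.17 (unadjusted p = 0.0445, adjusted p = 0.558), and their ranges overlapped. Without MI replicate 2, the rat at 125 FPKM, Scara5 differed by 2.69 (adjusted p = 0.00218) between MI and Sham rats and by -0.70 (unadjusted p = 0.101) between DAPA and MI rats. The latter had an unadjusted p of 0.131 without DAPA replicate 1, and the same without DAPA replicate 2. Cybrd1, a ferric reductase, did not exceed 0.661 FPKM in group Sham and was at least 5.01 in group MI, 2.33 higher on the log2 scale. It met the filter of 1 FPKM or more in 3 rats only through the infarcted rats. Its p is therefore not given, although it is counted among the genes called, and without any 1 MI rat it was not tested in MI vs Sham. Steap2, at 0.224 to 1.14 FPKM in group Sham and 2.08 to 4.61 in group MI, likewise needed the MI rats to meet the filter. The share called in this list therefore depends in part on the filter. Fibroblast markers were called higher than in group Sham for 8 of 8 in both infarcted groups, beside 19.5% of all genes in group MI and 14.5% in the DAPA group. Their summed FPKM was 436 to 713 in Sham rats, 3770 to 7367 in MI rats and 2321 to 4060 in DAPA rats, and their part in these results was not tested.

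**Figure D4:**
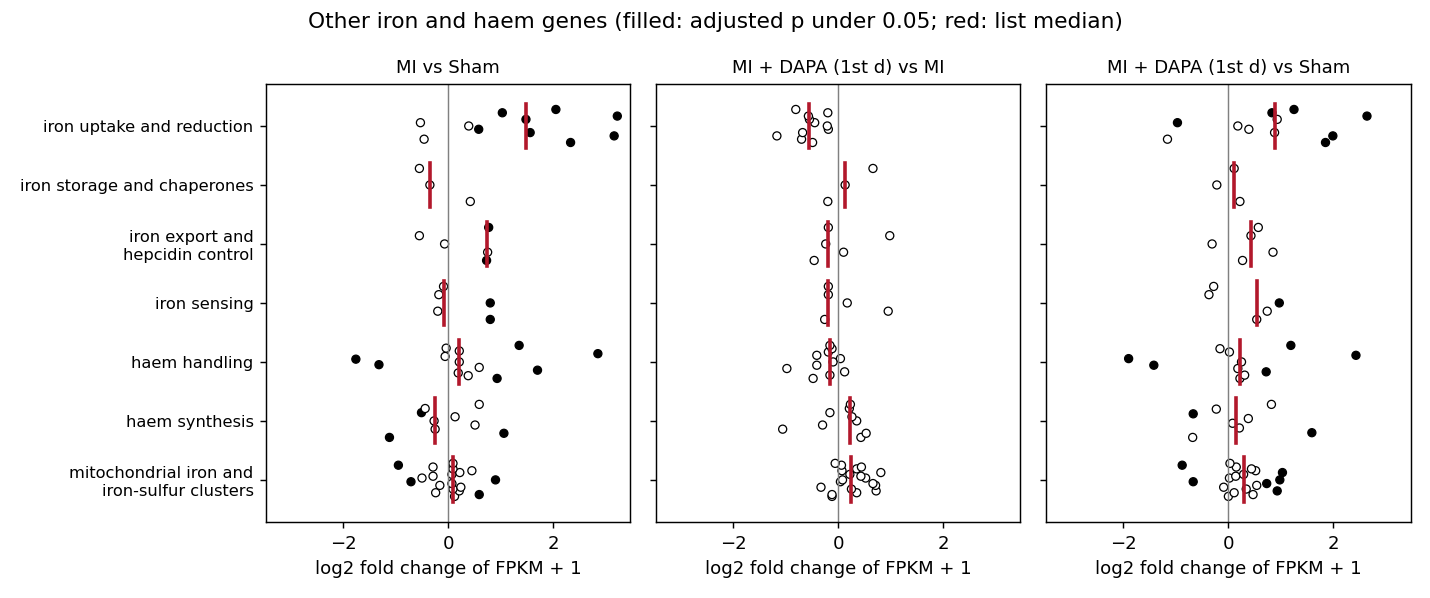
Log2 fold changes of FPKM + 1 for the other iron and haem genes tested, grouped in 7 lists by role, in 3 panels for the 3 comparisons. Each point is a gene, filled where its adjusted p is under 0.05, and the red line is the list's median. The uptake and reduction list has a median of 1.48 in MI vs Sham and -0.55 in DAPA vs MI.

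In the storage and chaperone list, 0 of 3 genes tested were called in any of the 3 comparisons. The shares of all genes were 19.5% each way in MI vs Sham, 14.5% and 14.1% in DAPA vs Sham and 0% in DAPA vs MI. An unadjusted limma p under 0.05 was reached by 1 of the 3 in MI vs Sham, beside 49% of all genes. In DAPA vs MI and DAPA vs Sham it was reached by 0, beside 8.49% and 41.4%. The export and hepcidin control list had 2 of 5 genes higher in MI rats than in Sham rats, beside 19.5% of all genes, and 0 in the DAPA group, beside 14.5%. Bmp2, a BMP ligand that induces hepcidin in liver, had 2.09, 1.07 and 1.42 FPKM in Sham rats, 2.87, 3.63 and 2.96 in MI rats and 2.75, 1.11 and 2.42 in DAPA rats. MI rats were above all others, with a difference of 0.73 from group Sham (SE 0.22, adjusted p = 0.0339). Neo1, which encodes the hemojuvelin-binding receptor neogenin, was 0.77 higher (SE 0.20, adjusted p = 0.0221). Without MI replicate 2 neither passed, with differences of 0.65 for Bmp2 (adjusted p = 0.111) and 0.74 for Neo1 (adjusted p = 0.063). Both calls were also lost without MI replicate 1, Sham replicate 2 or Sham replicate 3, and that of Bmp2 without MI replicate 3. Hjv itself, the BMP coreceptor hemojuvelin, had 9.64 ± 1.45 FPKM (SD, n = 3) in Sham rats, 7.14 ± 4.53 in MI rats and 14 ± 6.12 in DAPA rats, with no call, and is named beside Hamp after its values were seen. Bmp6 was likewise at 12 ± 6.13, 20.2 ± 9.4 and 20.4 ± 3.56 FPKM without a call.

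In the sensing list 2 of 5 genes were higher in MI rats than in Sham rats, beside 19.5% of all genes, and 1 in the DAPA group, beside 14.5%. Aco1, iron regulatory protein 1, had 7.06, 13 and 6.69 FPKM in Sham rats, 16.8, 16 and 14.2 in MI rats and 11.6, 13.7 and 13.4 in DAPA rats. The MI rats were above all others, 0.80 above group Sham (SE 0.25, adjusted p = 0.0387). That call was lost without any single rat but Sham replicate 2, with adjusted p between 0.0678 and 0.115. Cisd2, an iron-sulfur protein of the outer mitochondrial and endoplasmic reticulum membranes, was 0.80 higher in group MI (SE 0.15, adjusted p = 0.00645) and 0.97 higher in the DAPA group (SE 0.17, adjusted p = 0.00719).

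In haem handling, 4 of 13 genes were higher and 2 lower in group MI than in group Sham, beside 19.5% of all genes each way, and 3 of 11 were higher and 2 lower in the DAPA group, beside 14.5% and 14.1%. Cd163, the macrophage receptor for haemoglobin bound to haptoglobin, had 3.48, 4.78 and 3.17 FPKM in Sham rats, 16.7, 18.8 and 9.43 in MI rats and 7.08, 5.79 and 7.74 in DAPA rats. Its groups did not overlap, and it was 1.70 higher in group MI (SE 0.27, adjusted p = 0.00416) and 0.72 higher in the DAPA group (SE 0.20, adjusted p = 0.0338) than in group Sham. From group MI to the treated group its difference was -0.98 (unadjusted p = 0.00722, adjusted p = 0.558). Cd163 lost its call against group Sham in DAPA rats without DAPA replicate 1 or 3 or Sham replicate 1 or 3, with adjusted p between 0.0809 and 0.109. The summed FPKM of the macrophage markers, at 161 to 520 in Sham rats, 2044 to 3689 in MI rats and 1135 to 2089 in DAPA rats, moved with Cd163, and its part in that result was not tested. Lrp1, which takes up haem bound to hemopexin among many other ligands, was 2.85 higher in MI rats than in Sham rats (SE 0.25, adjusted p = 0.000975). Hp, haptoglobin, had 4.37, 8.17 and 7.03 FPKM in group Sham and 0.921, 0.864 and 1.86 in group MI. It fell by 1.76 in group MI and by 1.90 in the DAPA group. Hp needed the Sham rats to meet the filter of 1 FPKM or more in 3 rats, so its p is not given. It is counted among the genes called.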

How the data were processed

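Poly-A selected RNA of the left ventricle was sequenced by the authors for 3 rats per group at day 28. The authors deposited FPKM values for 35843 genes, 1 column per rat. The submitters' processing notes name HISAT2 2.0.5, StringTie 1.3.3b, featureCounts 1.5.0-p3 and DESeq2. The genome build and the strand setting are not given in the sources used here. Group and replicate number came from the sample titles, which give each sample a pair of names whose meaning is not stated. Reads per gene were recovered as whole multiples of the FPKM steps in 18896 of 18896 genes with a value in at least 4 rats (within 0.02 of a whole number). A count of 3 reads was the smallest taken as detectable, which covers counting error only.

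For each of the 3 comparisons, limma 3.58.1 (R 4.3.3) with a trended prior variance was run on log2(FPKM + 1) of 6 rats, over genes with FPKM values of 1 or more in 3 or more of them, with Benjamini-Hochberg adjustment over all genes tested. The authors' counts were not used here, so a log-scale model replaced their count test. Single genes were also compared by two-sided exact permutation tests. The iron genes, lists and markers were chosen with earlier results of these data known. All 10 iron genes are named, and of each other list the 3 with the smallest MI vs Sham p among those called, plus those with an unadjusted p under 0.05 between the infarcted groups. For 2 genes that these rules name, the result is not reported here. Alternatives changed the pseudocount (0.1), the filter (none, or at least 10 reads in every rat), the rats fitted, the scaling, the variance model and the call rule, added a replicate block, used voom on recovered reads and left out each rat. The counts over the other iron lists were added to these after seeing the data. Promoters came from RefSeq (GRCr8). Python 3.11.15 with pandas 2.3.3, scipy 1.17.1 and matplotlib 3.10.9 was used.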

Additional observations from a re-analysis of the deposited data

How the results depend on the processing

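The calls of Cp, Ftl1 and Hmox1 in MI vs Sham and of Cp and Hamp in DAPA vs Sham held in all 15 alternatives, and 0 iron genes were called between the infarcted groups in any of them. Scaled to all recovered reads, the median of all genes moved to 0.92 in MI vs Sham, 0.74 in DAPA vs Sham and -0.21 in DAPA vs MI. All genes then split into 9039 higher and 520 lower in MI vs Sham (2626 and 2635 as reported) and into 7125 and 429 in DAPA vs Sham (1936 and 1886 as reported). With voom the splits were 2080 and 3147, and 1431 and 2432, at medians of -0.12 in both. Under the scaling to all reads, 7 of the 8 iron genes were called in MI vs Sham instead of 4, and 53 instead of 25 and 46 instead of 20 of the further iron genes in the comparisons of MI and of DAPA with Sham. Directions turned for Tfrc, at 0.01 in MI vs Sham and 0.35 in DAPA vs Sham, and for Hfe, at 0.51 in DAPA vs Sham. Relative to the moved median these were -0.92, -0.39 and -0.23. The study's criteria (unadjusted p under 0.05, absolute log2 fold change over 1) gave 14, 2 and 11 further iron genes in MI vs Sham, DAPA vs MI and DAPA vs Sham, instead of 25, 0 and 20. With no filter on low values, 2 iron genes instead of 4 were called in DAPA vs Sham, and 3 instead of 4 in MI vs Sham (Tfrc lost). Scaling to all recovered reads replaced the library scale of the deposited values, which moves all genes of a rat together, and the medians with them. The cause of the other shifts was not tested.

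Leaving out 1 rat at a time gave 15 to 21 further iron genes in MI vs Sham and 11 to 19 in DAPA vs Sham, with 15 without MI replicate 1, 16 without MI replicate 3 or Sham replicate 3, and 11 without DAPA replicate 1. It gave 2 to 4 iron genes called in DAPA vs Sham, 0 to 4 at an unadjusted p under 0.05 and 3 to 6 without overlap in DAPA vs MI. For Hfe in DAPA vs Sham it gave -0.30 to 0.04, the latter without DAPA replicate 2. Fewer rats were fitted in each of these, and calls over all genes went from 5261 to between 3242 and 4471 in MI vs Sham. In DAPA vs Sham they went from 3822 to between 1802 and 3050. Ranges without overlap are also reached more easily with fewer rats, for any gene. Same-numbered rats did not deviate together: their correlations were -0.00811 to 0.0734 in MI vs Sham, -0.304 to 0.0308 in DAPA vs MI and -0.00304 to 0.195 in DAPA vs Sham. With the replicate number as a block, 1 iron gene instead of 2 had an unadjusted p under 0.05 in DAPA vs MI, 3 instead of 4 were called in MI vs Sham (Tfrc lost, adjusted p = 0.0631) and 4 in DAPA vs Sham. Depth was lowest in Sham, where Hamp rested on 18 to 38 reads.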

Other observations

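In haem synthesis, 1 of 9 genes was called higher and 2 lower in MI vs Sham, beside 19.5% of all genes each way, and 1 of 8 higher and 1 lower in DAPA vs Sham, beside 14.5% and 14.1%. Alas1, the rate-limiting enzyme of haem synthesis outside red cell precursors, had 11.8, 7.72 and 11.7 FPKM in Sham rats, 23.4, 15.2 and 31.5 in MI rats and 36.3, 36.3 and 26.6 in DAPA rats. All infarcted rats were above all Sham rats, by 1.06 in group MI (SE 0.29, limma adjusted p = 0.0247) and 1.59 in the DAPA group (SE 0.21, adjusted p = 0.00332). Alad, the enzyme of the following step, fell by 1.12 in group MI (SE 0.19, adjusted p = 0.00459), and Ppox, which acts near the end of the pathway, by 0.51 (SE 0.16, adjusted p = 0.0391). In MI vs Sham the call of Alas1 was lost without MI replicate 1 or 3 or Sham replicate 2 or 3, and that of Ppox without any single rat but MI replicate 2. Alas2, the erythroid form, had 1.43 to 1.88 FPKM in group MI and 0 to 0.463 in the DAPA group, a log2 difference of -1.06. It met the filter of 1 FPKM or more in 3 rats only through the MI rats, so its p is not given. Erythroid markers moved with Alas2, with a summed FPKM of 772 to 1309 in group MI and 14.1 to 496 in the DAPA group, and their part was not tested. Sham replicate 2 had the highest Alas2, at 8.69 FPKM, and the highest erythroid sum, at 5843.

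Of 19 genes of mitochondrial iron and iron-sulfur clusters, 2 were called higher and 2 lower in MI vs Sham, beside 19.5% of all genes each way, and 4 higher and 2 lower in DAPA vs Sham, beside 14.5% and 14.1%. Slc25a28, the mitochondrial iron importer mitoferrin-2, had 46.5, 57.6 and 45.2 FPKM in Sham rats, 24.9, 25.4 and 25.3 in MI rats and 22.9, 28.1 and 28.4 in DAPA rats. It fell by 0.95 in group MI (SE 0.14, adjusted p = 0.00329) and by 0.88 in the DAPA group (SE 0.17, adjusted p = 0.00916). The cochaperone Hscb fell by 0.71 in group MI (SE 0.19, adjusted p = 0.0256), while its partner Hspa9 was 0.90 higher (SE 0.14, adjusted p = 0.00331). The call of Hscb was lost without any single rat but Sham replicate 2, with adjusted p between 0.0545 and 0.0831. Between the DAPA group and group MI, where no gene passed, Glrx5 differed by 0.66 (unadjusted p = 0.0277), Nfu1 by 0.44 (unadjusted p = 0.0466) and Fdxr by -0.33 (unadjusted p = 0.0407), each with an adjusted p of 0.558. Treated rats did not overlap MI rats for any of these 3, which were named by their p. Over all genes 6.63% were higher without overlap and 7.16% lower. For Glrx5 the highest MI rat had 28.7 FPKM and the lowest treated rat 28.9. None of the 3 had an unadjusted limma p under 0.05 without MI replicate 1, DAPA replicate 1 or DAPA replicate 2. Without MI replicate 2 the differences were 0.47 for Glrx5 (unadjusted p = 0.0778), 0.30 for Nfu1 (unadjusted p = 0.14) and -0.33 for Fdxr (unadjusted p = 0.0955). The cardiomyocyte marker sum was 2335 to 11615 in group MI and 8930 to 18666 in the DAPA group, and its part in these differences was not tested.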
